A study of Mus musculus with 4 samples.

Results

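The m6A writer complex genes are the genes whose proteins place N6-methyladenosine (m6A) on messenger RNA, and here they are themselves looked at as m6A-marked transcripts. The 9 members are Mettl3, Mettl14, Wtap, Virma, Rbm15, Rbm15b, Zc3h13, Cbll1 and Mettl16. They were taken by gene symbol from the peak lists of both genotypes, the differential peaks and the gene expression table, and are 9 of 14818 genes with a peak in any of them. All 9 carried at least 1 peak in both genotypes. So did most genes: of the 14818, 13993 had a peak in cKO and 13832 in WT cells.

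m6A is written in the nucleus, mostly in a consensus around a central A-C pair, by a heterodimer in which METTL3 transfers the methyl group and METTL14 holds the RNA. WTAP anchors this pair to a larger regulatory complex of VIRMA, ZC3H13, CBLL1 and RBM15 or RBM15B, which steers methylation towards chosen transcripts and regions. METTL16 works outside this complex: it methylates a hairpin sequence in the U6 small nuclear RNA and in the Mat2a transcript, which encodes the enzyme that makes the methyl donor S-adenosylmethionine. Long internal exons, the surroundings of stop codons and 3′ UTRs are where m6A is typically found in mammalian messenger RNA.

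The cells were mouse bone-marrow-derived macrophages on the C57BL/6 strain. The cKO cells (LysM-cre, Mettl3fl/fl) carried floxed Mettl3 together with Cre under the control of the lysozyme M promoter, on in macrophages, monocytes and neutrophils, and the WT cells (Mettl3fl/fl) carried the floxed alleles without Cre. Both were grown from marrow for 7 days with M-CSF, the macrophage growth factor, and then kept for 24 h with MC38, a colon carcinoma line of the mouse. Each genotype had 1 library from RNA fragments enriched with an antibody against m6A (IP) and 1 from the fragments without enrichment (input). No age, number of animals or pooling is given in the sources used here, and the presence of Cre and the loss of Mettl3 cannot be told apart.

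With 1 library per group there is no replicate error, so each difference below is between these libraries, and the read depth behind each value is unknown. Of 12 macrophage markers 10 had an input value, at 6.29 to 1980 FPKM (read pairs relative to transcript length and library total) in cKO cells and 11.1 to 3393 in WT cells, and all 12 had peaks in both genotypes. Their summed level was 3383 FPKM in cKO and 4991 FPKM in WT input, with 8 of the 10 lower in cKO cells. Lyz2, the lysozyme M gene whose promoter drives Cre in the cKO cells, made up most of that gap, with 1980 FPKM in cKO and 3393 FPKM in WT cells. Without it the sums were 1402 FPKM in cKO and 1598 FPKM in WT cells. The 5 measured of 6 mesenchymal markers summed to 195 FPKM in cKO input and 109 FPKM in WT input. All 6 had peaks in both genotypes. Of 8 epithelial markers only Krt19 had an input value, 10.8 FPKM in cKO and 7.05 in WT cells. Peaks were listed for 4 of the 8 in cKO and 4 in WT cells. Of 4 neutrophil markers 1 had an input value, 13.7 FPKM in cKO and 12.3 in WT cells. Peaks were listed for 2 of them in cKO and 1 in WT cells. None of 4 lymphoid markers had an input value, and 1 had a peak in cKO and 0 in WT cells. Input values were given only for genes with a listed differential peak, so a missing value does not show absence. None of the measured markers was listed at 0. The part of other cells in the values below was not tested.

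The peak lists held 31 peaks in the writer genes in cKO cells and 28 in WT cells, among 38697 cKO and 36507 WT peaks in all. The value of a peak is the authors' log2 of IP over input, used here to describe and rank. Writer peaks lay at 0.70 to 3.43 with a median of 1.51 in cKO cells, and at 0.65 to 3.80 with a median of 1.35 in WT cells. Over all genes the median was 1.30 in cKO and 1.22 in WT cells. By the authors' region names, 20 cKO peaks and 19 WT peaks were in 3′ UTRs, 6 and 4 were exonic, 2 and 3 in 5′ UTRs, and 3 and 2 in introns.

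**Figure D1:**
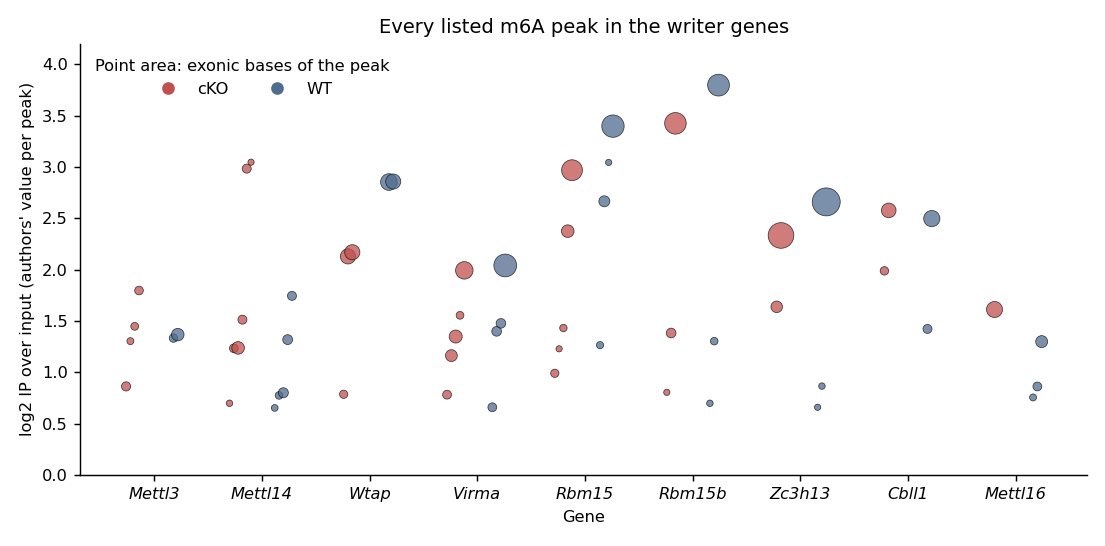
Every listed peak of the 9 genes, by gene on the x axis and the authors' log2 IP over input on the y axis, with cKO (red) left of WT (blue) and point area by the peak's exonic bases. The strongest large peaks were those of Rbm15b, at 3.43 in cKO and 3.80 in WT cells.

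Of the cKO writer peaks 24 of 31 (77.4%) overlapped a WT peak by at least 1 base, and of the WT peaks 23 of 28 (82.1%) overlapped a cKO peak. The share without a partner over all genes was 28.7% of cKO peaks and 26.8% of WT peaks, against 7 of 31 and 5 of 28 in the writer genes. These shares are near those of all genes. When at least 50% of both peaks had to overlap, 14 peaks of each genotype were shared, 45.2% in cKO and 50% in WT cells. Over all genes 46.1% of cKO and 48.8% of WT peaks were shared at that setting, so these shares were also near those of all genes.

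At the 9 one-to-one pairs of peaks, 5 were higher and 4 lower in cKO cells, with a median difference, cKO minus WT, of 0.045, beside 0.042 over the 19387 pairs of all genes. The 50% overlap gave 14 pairs, 6 higher and 8 lower, with a median of -0.066. Over all genes it gave 17809 pairs, 9411 higher and 8398 lower, with a median of 0.026. For the 9 writer pairs, subtracting the median difference of all pairs of like WT strength gave a median of -0.022. The pairs thus held no common direction, but the 9 pairs left out peaks with several partners. Among these were the large peaks of Rbm15, Rbm15b and Zc3h13, where each WT peak overlapped 2 cKO peaks and the cKO values were lower. Also left out were the peaks of Mettl16 and of the Mettl14 stop codon, where the cKO value was higher. The direction of the pairs therefore does not cover these peaks, and the members are described one by one below.

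In the authors' deposited table of differential peaks, which lists peaks with an unadjusted p below 0.05, 7 of the 9 genes had a peak, against 49.9% of all genes with a peak. It held 8 writer peaks, beside 31 cKO and 28 WT writer peaks in the peak lists, where 27.8% of all tested peaks were listed. How many writer peaks were tested is not known here, so no exact share of them can be set beside the shares of tested peaks. At an adjusted p below 0.05, 5 peaks in 4 genes (Wtap, Zc3h13, Rbm15 and Rbm15b) were lower in cKO cells, where 8.04% of all tested peaks and 18.0% of all genes with a peak had such a call. None was higher, where 6.76% of all tested peaks and 15.3% of all genes with a peak had such a call. The writer transcripts were longer than most, with a median of 3900 bases against 2921 over all genes, and a larger share of their bases lay in peaks, with a median of 65.6% in cKO and 58.7% in WT cells against 36.9% and 36.6% over all genes.

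**Figure D2:**
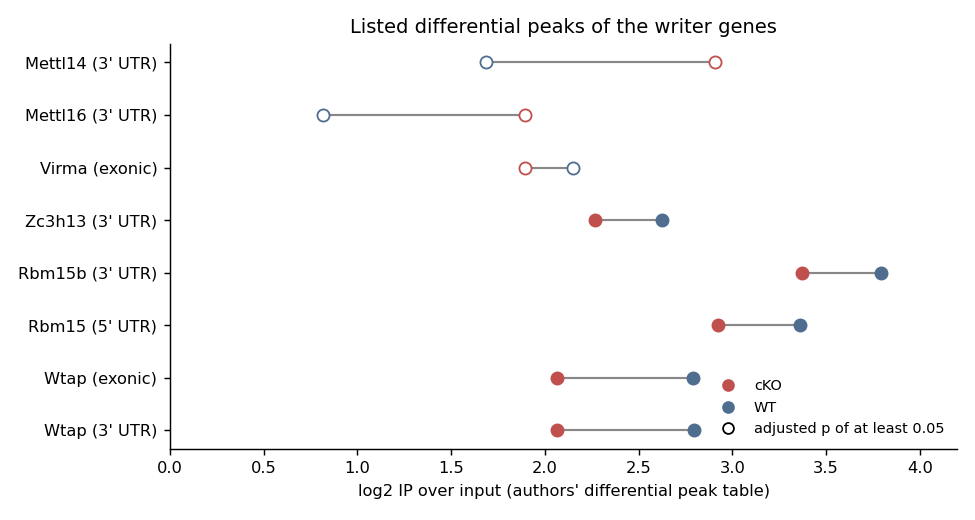
The 8 writer peaks of the authors' deposited table of differential peaks, with log2 IP over input on the x axis in cKO (red) and WT (blue) and open circles for an adjusted p of at least 0.05. Mettl14 and Mettl16 were higher in cKO, and the other 6 peaks were lower.

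Read by direction, 6 of the 8 listed writer peaks were lower in cKO cells, where 51.1% of all listed peaks were lower. The direction of listed peaks went with their strength. Among listed peaks whose mean log2 IP over input was 2 to 4, 84.6% were lower in cKO cells, and of the 7 writer peaks in that range 6 (85.7%) were. The lower direction of the strong writer peaks was therefore near that of all listed peaks of the same strength.

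**Figure D3:**
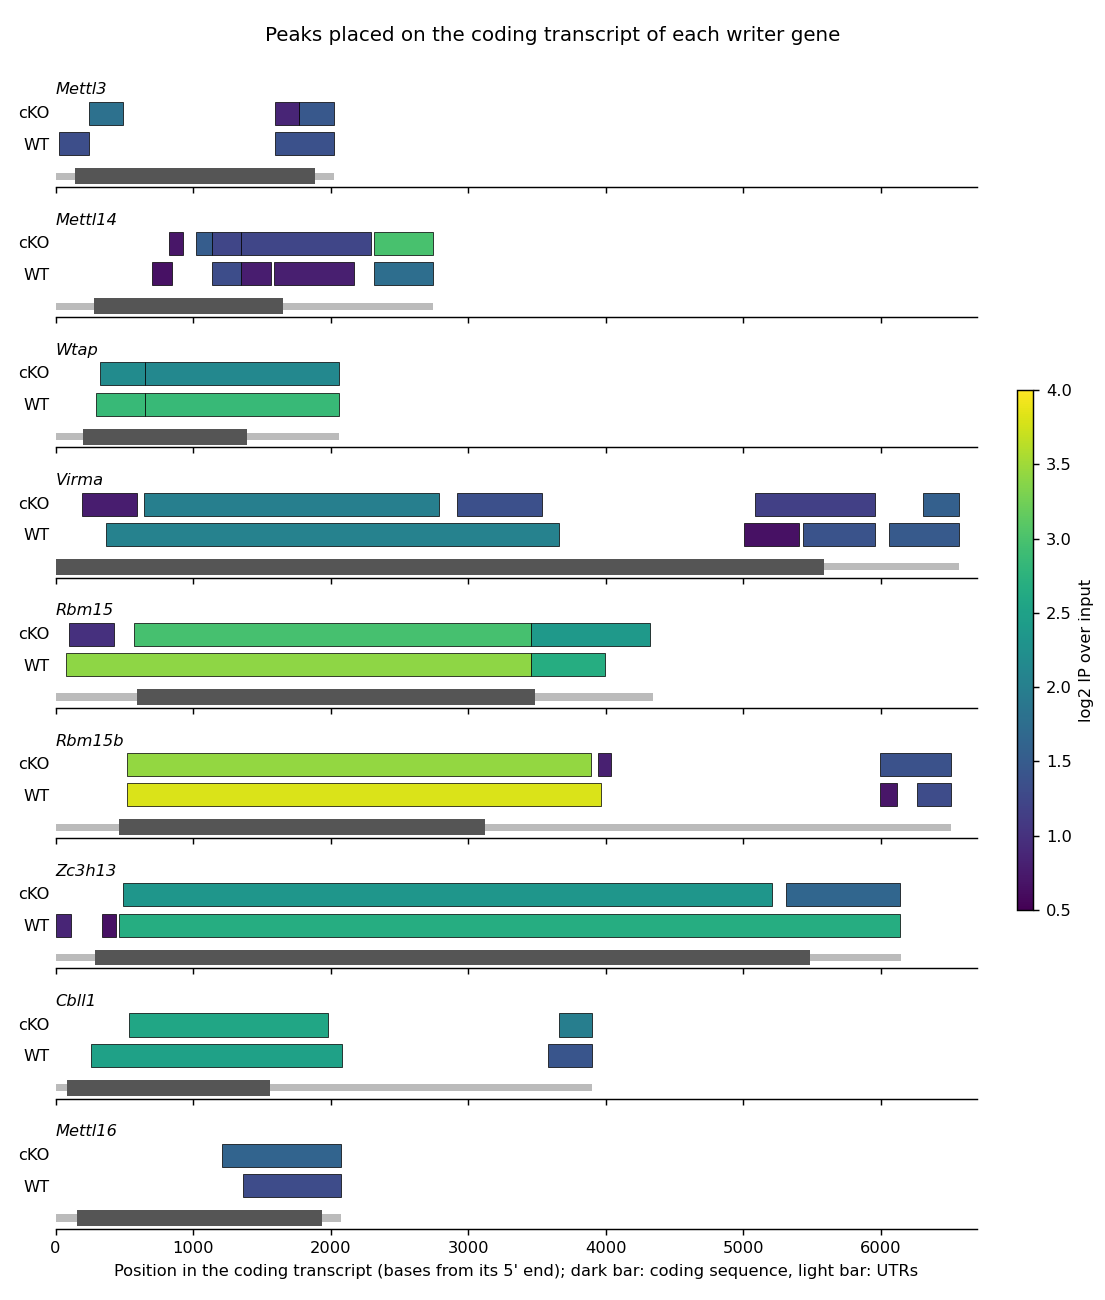
Peaks placed on the coding transcript of each gene, in bases from its 5′ end, with cKO above WT, colour for log2 IP over input, and dark and light bars for coding sequence and UTRs. Peaks covered 93.7% of the Rbm15 transcript in cKO and 90.3% in WT cells, but 33.5% and 32.0% of Mettl3. Peaks in introns or in other isoforms are not drawn.

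Mettl3 encodes the methyltransferase itself and is the gene that carries the floxed allele (chr14:52294841-52305128, minus strand, mm10, 11 exons). The cKO list held 4 peaks. They stood at 1.45 around the stop codon in exon 11, at 0.86 in exons 9 and 10, at 1.80 over 246 coding bases of exons 2 and 3, and at 1.30 in intron 1. The WT list held 2 peaks, at 1.37 from exon 9 to exon 11 and at 1.33 in exon 1, where it covered 115 bases of 5′ UTR and 100 coding bases. Both genotypes thus had a peak at the 3′ end, whereas the exon 1 peak stood only in the WT list and the peaks of exons 2 and 3 and of intron 1 only in the cKO list. The intron 1 peak lay inside an annotated retained-intron transcript.

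Mettl3 has no entry in the authors' deposited table of differential peaks, and no input value is at hand here. Which exons are floxed is not given in the sources used here, so these peaks do not check the deletion. The 4 copies of GGACT, a frequent form of the m6A consensus, are shown with 9 bases on each side because they mark where the genotypes' peaks part. All sequences here are from GENCODE M21 transcripts (GRCm38, mm10), 5′ to 3′, with the motif in capitals. The copies of exon 1 lay in the WT peak and in no cKO peak, and the other copies lay in peaks of both genotypes.
Mettl3 exon 1, copy 1 (chr14:52304930-52304952, minus strand): gaaacagctGGACTcgcttcgcg
Mettl3 exon 1, copy 2 (chr14:52304891-52304913, minus strand): acggaagcaGGACTctgggcact
Mettl3 coding sequence before the stop codon (chr14:52296527-52296549, minus strand): ccagggcctGGACTgcgatgtga
Mettl3 3′ UTR (chr14:52294909-52294931, minus strand): accttaagaGGACTgtttacgca

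Mettl14 encodes the RNA-binding partner of METTL3 (chr3:123368297-123386108, minus strand). Its strongest paired peak covered the last 425 bases of the 3′ UTR (chr3:123368297-123368721) at the same position in both lists, with a log2 IP over input of 2.98 in cKO cells and 1.74 in WT cells. This was the largest difference of the 9 writer pairs, at 1.24, and it was higher in cKO cells. The authors' deposited table gave 2.91 in cKO and 1.69 in WT cells, a 2.33-fold ratio, with an adjusted p of 0.0795, so it did not pass 0.05.

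Around the Mettl14 stop codon, a single cKO peak at 1.24 stood over WT peaks at 0.80 and 0.77. In exon 10 a peak had 1.23 in cKO and 1.32 in WT cells, and near exon 7 a peak had 0.70 in cKO and 0.65 in WT cells. These last pairs lay within 0.1 of each other. A further pair of cKO peaks, at 3.05 and 1.51, overlapped no WT peak. The stronger of them covered 100 bases that belong only to an isoform with a longer last exon, and none of the coding transcript used here.

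Wtap encodes the adaptor that brings the METTL3 and METTL14 pair to its regulatory subunits (chr17:12966796-12994169, minus strand). Its peaks had the smallest adjusted p of the writer peaks in the authors' deposited table of differential peaks. The peak over the last exons and 3′ UTR of the long isoform stood at a log2 of 2.13 in cKO cells (chr17:12966796-12972848) and 2.86 in WT cells (chr17:12966796-12972823). The peak over exons 4 to 6 and an alternative last exon had 2.17 in cKO cells (chr17:12974049-12981770) and 2.85 in WT cells (chr17:12973724-12981795).

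Both Wtap peaks were lower in cKO cells, by a like amount in either 3′ end. In the authors' deposited table the first had 2.07 in cKO and 2.79 in WT cells with an adjusted p of 2.51e-16. The second had 2.06 in cKO and 2.79 in WT cells in the authors' deposited table, with an adjusted p of 1.65e-16. By the authors' deposited table, either peak in cKO cells had 0.604 of the WT ratio. In the peak lists the differences were -0.73 and -0.68, and -0.46 and -0.42 once the median of pairs of like WT strength was subtracted. A further cKO peak, at 0.79, lay only in the alternative last exon and had no WT partner.

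Of the GGACT copies that lay in Wtap peaks in cKO as well as WT cells, 8 are shown because the lower values cover either 3′ end. The first pair is coding sequence of the long isoform, the next pair is its 3′ UTR, and the last 4 are from the alternative last exon.
Wtap long isoform, coding (chr17:12967888-12967910, minus strand): gtaccagcaGGACTacatcttct
Wtap long isoform, coding, near the stop codon (chr17:12967491-12967513, minus strand): gaatggcttGGACTcaaatgtaa
Wtap long isoform, 3′ UTR (chr17:12967047-12967069, minus strand): gtgggtttaGGACTgccaggttt
Wtap long isoform, 3′ UTR (chr17:12967000-12967022, minus strand): taaaaagttGGACTtggagtcct
Wtap alternative last exon (chr17:12975051-12975073, minus strand): gatgccgtcGGACTattccgaag
Wtap alternative last exon (chr17:12974766-12974788, minus strand): taagactgtGGACTtcatgattg
Wtap alternative last exon (chr17:12974706-12974728, minus strand): gcctttaaaGGACTtacttatgc
Wtap alternative last exon (chr17:12974515-12974537, minus strand): cttaaccaaGGACTgtacaaacg

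Virma encodes the large scaffold of the regulatory complex, known for steering methylation to 3′ UTRs and stop codons (chr4:11485958-11550684, plus strand, 25 exons). cKO cells had 5 peaks, at 0.78, 1.99, 1.35, 1.16 and 1.55 in transcript order, and WT cells had 4, at 2.04, 0.66, 1.40 and 1.48. A single WT peak (chr4:11505492-11527768) covered 3293 coding bases and overlapped the first 3 cKO peaks, of which the strongest covered 2150 coding bases (chr4:11507940-11521234). The 3′ UTR pair at the gene's end had 1.55 in cKO and 1.48 in WT cells. In the authors' deposited table the central peak had 1.90 in cKO and 2.15 in WT cells with an adjusted p of 0.0605, which did not pass 0.05.

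Zc3h13 encodes the zinc finger protein that holds the regulatory complex in the nucleus (chr14:75284373-75344426, plus strand, 19 exons). The WT list held 1 peak over 92.4% of the coding transcript at 2.66 (chr14:75292234-75344418), with weaker peaks at 0.86 and 0.66 in the first exons. In the cKO list the same stretch was covered by peaks at 2.33 (chr14:75292259-75339372) and at 1.64 at the 3′ end. The cKO values stood below the WT value, and nearly the whole transcript was marked in both, 90.3% of bases in cKO and 95.8% in WT cells. The authors' deposited table gave 2.27 in cKO and 2.62 in WT cells, 0.780 of the WT ratio, with an adjusted p of 1.08e-07.

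Cbll1 encodes HAKAI, a RING-finger subunit of the complex (chr12:31484829-31499616, minus strand). The peak around its stop codon had 2.58 in cKO cells and 2.50 in WT cells, where it also reached upstream to exon 2. The peak at the end of its 3′ UTR had 1.99 in cKO and 1.42 in WT cells. The differences were thus 0.08 at the stop codon and 0.57 at the 3′ end, and 0.35 and 0.47 once the median of pairs of like WT strength was subtracted. Cbll1 has no entry in the authors' deposited table of differential peaks and no input value here.

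Rbm15 and Rbm15b encode RNA-binding paralogs that take the complex to chosen RNAs, among them the noncoding RNA Xist. The coding sequence of Rbm15 lies almost wholly in its first exon of 3459 bases (chr3:107325421-107333673, minus strand), and Rbm15b is a single exon of 6511 bases (chr9:106880918-106887428, minus strand). Each carried its strongest large peak on this exon. In Rbm15 that peak had 2.97 in cKO cells (chr3:107329976-107333100) and 3.40 in WT cells (chr3:107329951-107333600), and 99.3% of its transcript bases in cKO and 84.6% in WT cells were coding, although the authors name it 5′ UTR. In Rbm15b it had 3.43 in cKO cells (chr9:106883538-106886912) and 3.80 in WT cells (chr9:106883463-106886912), with 77.3% and 75.6% of its bases coding.

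Both paralogs were lower in cKO cells by about the same amount. In the authors' deposited table Rbm15 had 2.93 in cKO and 3.36 in WT cells, 0.738 of the WT ratio, with an adjusted p of 0.00554. For Rbm15b the authors' deposited table gave 3.37 in cKO and 3.79 in WT cells, 0.745 of the WT ratio, with an adjusted p of 0.00226. The GGACT copies of these peaks, all in coding sequence and in peaks of both genotypes, are shown because these are the strongest large peaks of the writer genes.
Rbm15, copy 1 (chr3:107332882-107332904, minus strand): tggcggtgaGGACTccagttctc
Rbm15, copy 2 (chr3:107331181-107331203, minus strand): aggtgatcgGGACTtgcccagca
Rbm15b, copy 1 (chr9:106886078-106886100, minus strand): gcggccgtgGGACTgtctcgaga
Rbm15b, copy 2 (chr9:106886055-106886077, minus strand): gcgagccctGGACTattacgggc
Rbm15b, copy 3 (chr9:106885320-106885342, minus strand): tttggaaggGGACTggaccagcc

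The 3′ peak of Rbm15 had 2.38 in cKO and 2.67 in WT cells, a difference of -0.29, and of -0.02 once centred in the same way. In cKO cells a separate 5′ UTR peak, at 0.99, fell inside the span of the large WT peak. In its intron, cKO cells had peaks at 1.23 and 1.43 and WT cells at 3.05 and 1.26. None of these 4 overlapped a peak of the other genotype, and all lay inside an annotated retained-intron transcript. At the 3′ end of Rbm15b, a peak at 1.38 in cKO and 1.30 in WT cells ran 42606 bases past the gene into a transcript of the neighbour Manf, so its gene is uncertain. Weaker Rbm15b peaks had 0.80 in cKO cells and 0.70 in WT cells, at different places.

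Mettl16, the methyltransferase that works apart from the complex (chr11:74770830-74828525, plus strand), was marked at its 3′ end. A single cKO peak at 1.62 (chr11:74816919-74818808) covered the span of WT peaks at 1.30, 0.75 and 0.86, so the cKO value was above all 3 of them. The authors' deposited table listed the last of these stretches (chr11:74818409-74818808), with 1.89 in cKO and 0.82 in WT cells, a 2.11-fold ratio, and an adjusted p of 0.0630. It did not pass 0.05, and it lies in an isoform that ends beyond the coding transcript used here.

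Mat2a is no writer gene but the known messenger RNA target of METTL16, whose 3′ UTR holds hairpins with the sequence TACAGAGAA. The main 3′ UTR peak had 2.35 in cKO cells (chr6:72432799-72433923) and 1.73 in WT cells (chr6:72432799-72433323). The same cKO peak also overlapped a second WT peak, at 0.67 (chr6:72433574-72433823). In the authors' deposited table this stretch (chr6:72432799-72433823) had 2.37 in cKO and 1.38 in WT cells, a 1.98-fold ratio, with an adjusted p of 3.98e-11. The Mat2a 3′ UTR was thus higher in cKO cells, the opposite direction to the called writer peaks. Those writer peaks were stronger, with a mean log2 IP over input of 2.43 to 3.58. Of listed peaks of all genes with a mean of 2 to 4, 84.6% were lower in cKO cells. The directions are therefore not compared at like strength. The Mat2a input was 6.13 FPKM in cKO cells and 9.89 FPKM in WT cells, a difference of -0.61 on the log2(FPKM + 1) scale, and the authors' deposited table gave it a q of 1.

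Its 5 copies of TACAGAGAA, searched on the transcript strand, are shown with 9 bases on each side because they are the letters METTL16 is known to methylate. Of all coding transcripts 2.04% hold at least 1 copy in the 3′ UTR, and 0.642% of 500-base transcript windows hold 1. The differential peak held 4 of the copies. Copy 2 lay in a cKO peak and in no WT peak, and the others lay in peaks of both genotypes. Copy 2 falls in the gap between the WT peaks at 1.73 and 0.67, which the single cKO peak spans.
Mat2a, copy 1 (chr6:72434236-72434262, minus strand): ggcgtaggtTACAGAGAAgccttcaag
Mat2a, copy 2 (chr6:72433452-72433478, minus strand): cttgtgataTACAGAGAAgtcacaggg
Mat2a, copy 3 (chr6:72433273-72433299, minus strand): tggtgtagcTACAGAGAAaccagcttc
Mat2a, copy 4 (chr6:72433158-72433184, minus strand): tggcgtaagTACAGAGAAgccatcacc
Mat2a, copy 5 (chr6:72432939-72432965, minus strand): ctggtgtggTACAGAGAAgccagcttg

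**Figure D4:**
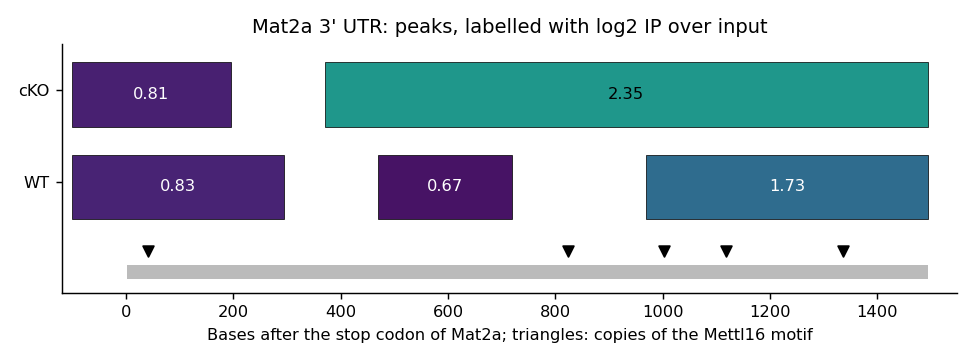
Peaks in the Mat2a 3′ UTR, in bases after the stop codon, with cKO above WT, each labelled with its log2 IP over input, and triangles for the 5 copies of the METTL16 motif. The peak that holds the last copies had 2.35 in cKO and 1.73 in WT cells, and the peak over the first copy had 0.81 in cKO and 0.83 in WT cells.

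Input levels were compared for the 7 writer genes with a value. Wtap was the highest in either genotype, with 10.6 FPKM in cKO and 9.20 in WT cells, followed by Zc3h13 with 8.06 in cKO and 8.24 in WT cells and Virma with 7.40 in cKO and 7.42 in WT cells. Rbm15b had 2.78 FPKM in cKO and 3.15 in WT cells, and Rbm15 had 2.47 in cKO and 2.19 in WT cells. The lowest were Mettl14, with 1.30 in cKO and 1.55 in WT cells, and Mettl16, with 0.881 in cKO and 0.959 in WT cells. The order of the genes was the same in both genotypes, but with 1 library each it is unknown which neighbours differ beyond their spread.

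On the log2(FPKM + 1) scale, which understates changes of low genes, the differences, cKO minus WT, ran between -0.14 in Mettl14 and 0.19 in Wtap, with a median of -0.03. Over the 6079 genes with a mean of at least 1 FPKM the median was -0.02, and the central 90% of genes lay between -0.38 and 0.36, a range that held all 7 writer genes. None of the 7 differed by at least 2-fold, where 0.839% of those genes did; Mettl16 lies below that minimum in its mean. Each had a q of 1 in the authors' deposited table. Fewer cells of a type and less RNA per cell cannot be told apart in such values.

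**Figure D5:**
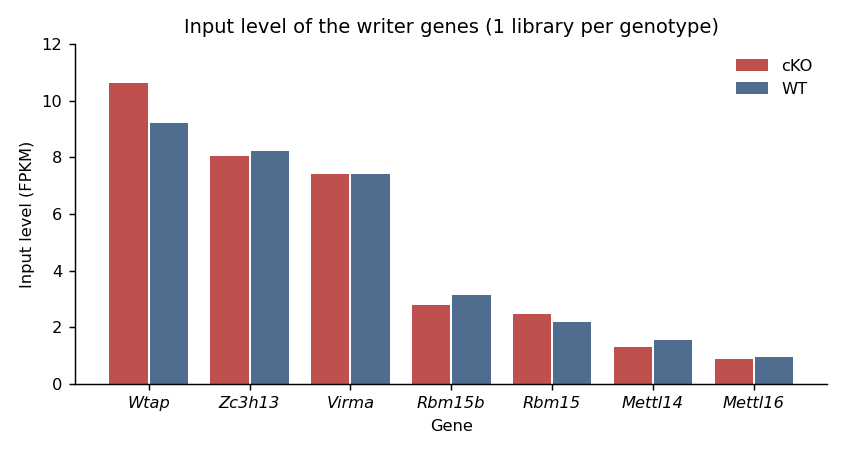
Input level in FPKM (y axis) of the 7 writer genes with a value, with cKO (red) left of WT (blue) and 1 library per bar. Wtap had 10.6 FPKM in cKO and 9.20 in WT cells, and Mettl16 had 0.881 in cKO and 0.959 in WT cells.

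For the 4 genes with a called differential peak, input and peak values can be set side by side. Wtap, with the largest lower value at its peaks, had 15.6% more input in cKO than in WT cells, and Rbm15 had 13.0% more. Rbm15b and Zc3h13 had an input difference of -11.8% and -2.12% in cKO cells relative to WT. The lower IP over input of these peaks was thus found with slightly higher input in Wtap and Rbm15 and slightly lower input in Rbm15b and Zc3h13.

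The strongest peak was also placed against the longest exon of each coding transcript. For Rbm15, Rbm15b and Mettl14 all transcript bases of the strongest peak on the coding transcript lay in the longest exon in both genotypes, and for Cbll1 100% did in cKO and 85.5% in WT cells. Rbm15b is a single exon, so its share was fixed in advance, and the longest exon of Rbm15 holds 3459 of its 4343 transcript bases. Shares over all genes were not computed, so those of the writer genes are a description only. The share was 85.5% in cKO and 100% in WT cells for Mettl16, 53.1% in cKO and 34.6% in WT cells for Virma, and for Zc3h13 it was 1191 of 4724 bases in cKO and 1191 of 5674 bases in WT cells. In Mettl3 11.4% did in cKO cells and none in WT cells, and in Wtap none did in cKO and 89.0% in WT cells, where another peak was the strongest. Of the peaks that the authors name UTR, 10 of 20 in cKO and 10 of 20 in WT cells had over 50% coding bases on the coding transcript, against 28.7% over all genes in either genotype. The region names of writer peaks therefore often cover coding sequence.

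The m6A consensus (A, G or T, then A or G, then A, then C, then A, C or T), searched on the transcript strand, occurred 21.5 times per kb in cKO peaks of the writer transcripts and 21.8 times in WT peaks. Outside the peaks of the same transcripts it occurred 21.9 times in cKO and 21.3 times in WT cells. Over all genes the density in peaks was 21.3 in cKO and 21.2 in WT cells, against 19.7 outside peaks in both. GGACT alone, which is one form of the consensus, had 23 of its 41 copies in the writer transcripts inside cKO peaks and 27 inside WT peaks. Those peaks held 67.9% of the writer transcript bases in cKO and 69.3% in WT cells. GGACT density was 0.931 per kb in cKO and 1.07 in WT peaks, against 1.54 outside cKO and 1.25 outside WT peaks. Over all genes it was 1.22 in cKO and 1.23 in WT peaks, against 1.03 outside peaks in both. Inside the writers' cKO peaks neither density was above that outside them, and 41.1% of all 500-base transcript windows held a GGACT.

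Genes that remove, read or supply the methyl mark were counted in the same way in the authors' deposited table, where 49.9% of all genes with a peak had a listed peak and 30.8% had one with an adjusted p below 0.05. Among 2 erasers, both had a listed peak, and a peak in the 5′ UTR of the demethylase Alkbh5 was lower in cKO cells, at 0.48 against 1.06 in WT cells, with an adjusted p of 0.000147 in the authors' deposited table. Of 12 readers, 5 genes had peaks with an adjusted p below 0.05, 4 peaks higher and 3 lower in cKO cells. None of the listed peaks of 5 genes for other methyltransferases or their partner proteins passed 0.05.

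For the 7 genes of methyl donor supply, of which 4 had a call, 2 peaks were higher and 3 lower in cKO cells in the authors' deposited table at an adjusted p below 0.05. The higher ones were in Mat2a and in the 3′ UTR of Ahcyl2, with 1.28 in cKO and 0.72 in WT cells. Lower ones included Mtr, methionine synthase, with 1.10 in cKO and 1.93 in WT cells, and an exonic stretch of Ahcyl2 with -0.21 in cKO and 1.84 in WT cells.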

How the data were processed

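m6A IP and input libraries of cKO and WT macrophages (1 each) were used as deposited. HISAT2, StringTie, HOMER, fastp, edgeR and ChIPseeker, on mm10, are named in the submitters' processing notes without roles. Peak caller and IP to input scaling: not given in the sources used here. Per the file headers, the authors gave each peak a log2 IP over input, a p-value and its adjusted value. Per the file headers, the authors' gene table holds input FPKM with a q-value, only for genes with a listed differential peak. No counts were used, so depth is unknown and no test of its own was made. The authors' adjusted p-values are from single libraries.

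Starts were made 1-based. Peaks were joined on the same strand with bedtools 2.31.1 and placed on the coding and other GENCODE M21 transcripts, with Python 3.11.15. Of 59 writer peaks, 55 had an exonic length in multiples of 25 bases. Input differences are log2(FPKM + 1), cKO minus WT. Overlap code was checked on simulated data. Every member and every peak is described, and of other genes only Mat2a and listed pathway genes that pass 0.05 after the authors' adjustment are named. A pathway gene that enters the counts is not reported here by itself. The members and lists were chosen with earlier results of these data known.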

Additional observations from a re-analysis of the deposited data

How the results depend on the processing

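Requiring 50% of both peaks to overlap gave 14 shared cKO peaks (24 otherwise) and 14 shared WT peaks (23 otherwise), and a median pair difference of -0.066 (0.045 otherwise). Over all genes the shared part was 46.1% of cKO peaks (71.3% otherwise) and 48.8% of WT peaks (73.2% otherwise). The median pair difference over all genes was 0.026 (0.042 otherwise). Centring pairs on the median of all pairs of like WT strength turned the median to -0.022 and moved 6 of the 9 pairs: Wtap to -0.46 and -0.42, the Rbm15 3′ pair to -0.02, the Cbll1 stop codon pair to 0.35, and the weaker Mettl14 pairs to -0.23 and -0.10. Limiting the authors' deposited differential peaks to an adjusted p below 0.05 left 5 of 8 writer peaks, with 0 of 2 higher and 5 of 6 lower in cKO cells. GGACT alone gave 0.931 motifs per kb in cKO and 1.07 in WT peaks, against 21.5 and 21.8 for the full consensus, by construction a rarer motif. Peak counts stayed within 1.5 times under stricter peak thresholds (25 cKO and 19 WT peaks at a log2 of at least 1). The median input difference kept its sign under other pseudocounts and centring, while that of Virma changed sign when centred. The Mettl14 input difference moved from -0.14 with a pseudocount of 1 to -0.24 with a pseudocount of 0.01. No paired analysis was possible because each group has 1 library. Unknown depth and the lack of replicates limit every difference.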

Other observations

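Of the 12 writer peaks found in 1 genotype only, 7 had no base in the coding transcript of their gene and lay in introns or in other isoforms, namely 5 of 7 in cKO and 2 of 5 in WT cells. Among the 47 writer peaks that overlapped a peak of the other genotype, 2 had no such base, both in Mettl16 and in the WT list. The peaks without a partner were also shorter, with a median of 225 exonic bases in cKO and 125 in WT cells, against 850 in cKO and 550 in WT cells for those with one. These shares were seen after the peaks had been listed and are given as a description, with no test. The same shares and lengths over all genes were not computed, so none of them can be called particular to the writer genes.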
